A study of Mus musculus with 44 samples.

Results

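The proximal extraembryonic endoderm of the E6.5 mouse embryo, called exEndo 2, was compared with the epiblast (Epi) of the same stage by low-input RNA-seq. The comparison rests on all 4 libraries titled E65_exEndo2 and all 4 titled E65_Epi, 8 of the 44 RNA-seq libraries of the series. Embryos carried no mutation (genotype WT) and were made for lineage tracing with 2 reporters, in which an mCherry+ morula (CD1/G4) was aggregated with GFP+ mESCs (G4). Epi was therefore GFP+ and descended from a male, single-cell-derived mESC line of F1G4 background with CAG-driven EGFP at Rosa26. The exEndo 2 cells were mCherry+ (EF1a-driven mCherry from a piggyBac transposon) and descended from the host morula, which can be male or female. Lineage, genetic background, reporter and the culture of the mESCs all change together between the tissues and cannot be told apart here. Each library comes from a single embryo, in which the exEndo 2 had been parted by hand from the extraembryonic ectoderm of the proximal piece after enzyme treatment. The 4 libraries of the distal extraembryonic endoderm (exEndo 1, also mCherry+) and the 4 of the E9.5 yolk sac endoderm (YsEndo) were used only to show where exEndo 2 differs from its closest relatives.

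The extraembryonic, or visceral, endoderm is the polarized epithelium that encloses the egg cylinder after implantation. Over the extraembryonic ectoderm its cells are tall, take up maternal proteins by endocytosis, degrade them in lysosomes and secrete lipoproteins and serum proteins, much as the fetal liver does later. Over the epiblast the layer is thinner and holds the anterior visceral endoderm, a source of Nodal and Wnt antagonists. The epiblast is the pluripotent layer that forms all tissues of the embryo proper, starting at the primitive streak.

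Expression is given as TPM, a share of the library's transcripts corrected for their length, with the values of replicates 1, 2, 3 and 4 in that order. Differences are log2 fold changes of log2(TPM + 1), exEndo 2 minus Epi, given ± SE from a limma model, with two-sided p-values adjusted by Benjamini-Hochberg over all 12046 genes tested. A gene is said to have risen or fallen where the adjusted p was under 0.05 and the absolute log2 fold change above 1. Because 1 TPM was added, low levels give small fold changes, and no fold change is given where a gene was listed at 0 in every Epi library. Aligned bases were taken from the median ratio of coverage to FPKM over genes with a single annotated transcript. They were 6.57 to 9.06 Gb in exEndo 2 and 7.51 to 9.77 Gb in Epi. In exEndo 2 12074 to 13172 genes lay above 1 TPM, and in Epi 12540 to 12717. The sampling error of a single value is not known beyond these totals, because the deposited tables hold no read counts. In bulk tissue, fewer cells of a type and less RNA per cell cannot be told apart.

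Some libraries stood apart from others of their group. Replicate 2 of exEndo 2 held the highest summed level of listed extraembryonic ectoderm markers. Elf5, which marks that tissue, was at 0.155, 7.02, 0.659 and 6.51 TPM in exEndo 2. The summed level of the 16 markers of extraembryonic ectoderm was 135 TPM in replicate 2 and 100.01 in replicate 4 of exEndo 2. It was 67.6 and 77.6 TPM in replicates 1 and 3 and 18.9 to 22.4 TPM in Epi. The same sum was 64.2 to 80.9 TPM in exEndo 1 and 141.6 to 200.7 TPM in YsEndo, so it does not single out extraembryonic ectoderm. None of the 16 was at 0 in any exEndo 2 library. Replicate 1 of Epi lacked the primitive streak transcripts of the other Epi libraries, with Mixl1 at 1.90, 141, 144 and 227 TPM. By their sex-linked transcripts the exEndo 2 libraries fell into pairs. Xist, the RNA of the inactive X chromosome, was at 490.1, 2.96, 199 and 1.58 TPM, and the Y-linked Ddx3y at 0, 52.0, 0 and 50.3 TPM. In Epi, whose line is described as male, Ddx3y was at 2.01, 0.664, 0.487 and 0.943 TPM, Eif2s3y at 0.338, 0, 0 and 0.192 and Xist at 1.67, 0.571, 0.614 and 1.32, so that transcripts of both kinds were nearly absent. The Y-linked genes were left out of the fit, and counts that lead the text were also computed without replicates 2 and 4 of exEndo 2, which carry both the Y-linked and the highest Elf5 levels.

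The tissues differed in a large share of their transcripts. Across the 12046 genes, log2(TPM + 1) of single libraries correlated at a mean Pearson r of 0.766 between exEndo 2 and Epi. The libraries of exEndo 2 correlated at 0.981 among themselves, at 0.954 with exEndo 1 and at 0.919 with YsEndo. These are correlations across genes, which are not independent replicates. Of the 12046 genes, 4310 were called, or 35.8% of those tested, with 2452 higher in exEndo 2 (20.4%) and 1858 lower (15.4%). The counts of list members given below are to be read beside these shares. Tested genes were above 1 TPM in at least 4 of the 8 libraries. A gene nearly absent from either tissue passed by its level in the other, so the filter favoured its direction. The values of both groups did not overlap for 7150 genes (59.4%). Of the called genes, 957 rose and 693 fell by more than 2 on the log2 scale, 212 rose and 85 fell by more than 4, and 63 rose and 12 fell by more than 6. The count was 4421 without replicates 2 and 4 of exEndo 2 and lay between 4258 and 4355 when single libraries were left out. The scatter plot of group means shows the asymmetry of the extremes.

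**Figure D1:**
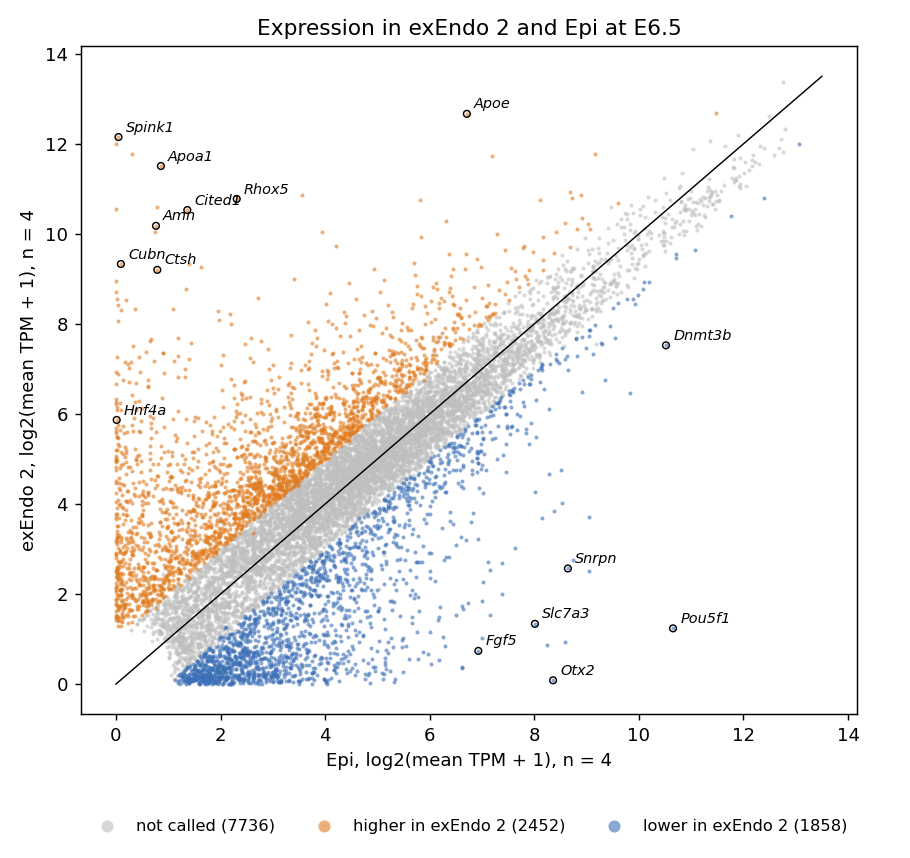
The log2 of the mean TPM + 1 over the 4 exEndo 2 libraries (vertical axis) against that over the 4 Epi libraries (horizontal axis) for the 12046 genes tested; orange points are the 2452 genes called higher in exEndo 2, blue points the 1858 called lower, grey points the rest, and the line marks equal levels. Spink1, Apoa1, Amn and Cubn lie at the upper left, where Epi is near 0, and Pou5f1 and Otx2 lie at the lower right.

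The extremes were close to an on-off pattern. More genes were strongly expressed in exEndo 2 and nearly silent in Epi than the reverse. Above 10 TPM in every exEndo 2 library and below 1 TPM in every Epi library lay 155 genes (1.29% of those tested), and 62 genes (0.515%) showed the reverse. Of the 155 genes, 113 also exceeded 10 TPM in every exEndo 1 library and 123 in every YsEndo library, and 0 and 1 were below 1 TPM in all libraries of these groups. Of the 62 genes, 19 were below 1 TPM in every exEndo 1 library and 54 in every YsEndo library.

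The most abundant messages of exEndo 2 combined housekeeping genes with secreted proteins of the endoderm. Ftl1, the ferritin light chain, led with a mean of 6604 TPM, followed by Apoe with 6502 TPM and by ribosomal protein genes. Spink1, a secreted inhibitor of trypsin, was the fourth in rank with 4559, 2185, 6051 and 5389.7 TPM. It was 0.138, 0, 0 and 0 TPM in Epi, and the log2 fold change of 12.01 ± 0.26 (adjusted p = 1.52e-11) was the largest of all genes. Its level in exEndo 1 was higher still, at 14782, 12187, 13969 and 11233 TPM (log2 fold change to exEndo 1 -1.61 ± 0.26, adjusted p = 0.00215). Apoc2, the cofactor of lipoprotein lipase, was the seventh with 4119, 1804, 4192 and 6336 TPM and was listed at 0 in all 4 libraries of Epi. S100g, a calcium-binding protein of absorptive epithelia, was at 404, 3384, 1129.5 and 1245 TPM in exEndo 2 against 0.610, 0.707, 0.847 and 0.710 in Epi (log2 fold change 9.42 ± 0.47).

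The reporters separated the tissues. Transcripts of mCherry were at 4677, 2689.7, 4938 and 1731 TPM in exEndo 2 and 0.822, 0, 0.0953 and 0 in Epi, while EGFP was at 332, 496, 532 and 179.6 TPM in Epi and 0, 0, 0 and 3.59 in exEndo 2. EGFP in replicate 4 of exEndo 2 amounted to 0.933% of the Epi mean and was at 0 in the other 3. Pou5f1, an epiblast transcript, reached at most 0.280% of its Epi mean in exEndo 2, whereas Utf1 and Mixl1 reached up to 8.80% and 6.89% of theirs. Amn and Cubn of the endoderm reached at most 0.0949% and 0.0140% of their exEndo 2 mean in Epi. The defining markers followed the labels as well. The summed level of 9 visceral endoderm markers was 4804 to 8804 TPM in exEndo 2 and 2.46 to 6.09 TPM in Epi, and that of 5 epiblast markers was 5.23 to 35.0 TPM in exEndo 2 and 1412 to 2542 TPM in Epi.

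**Figure D2:**
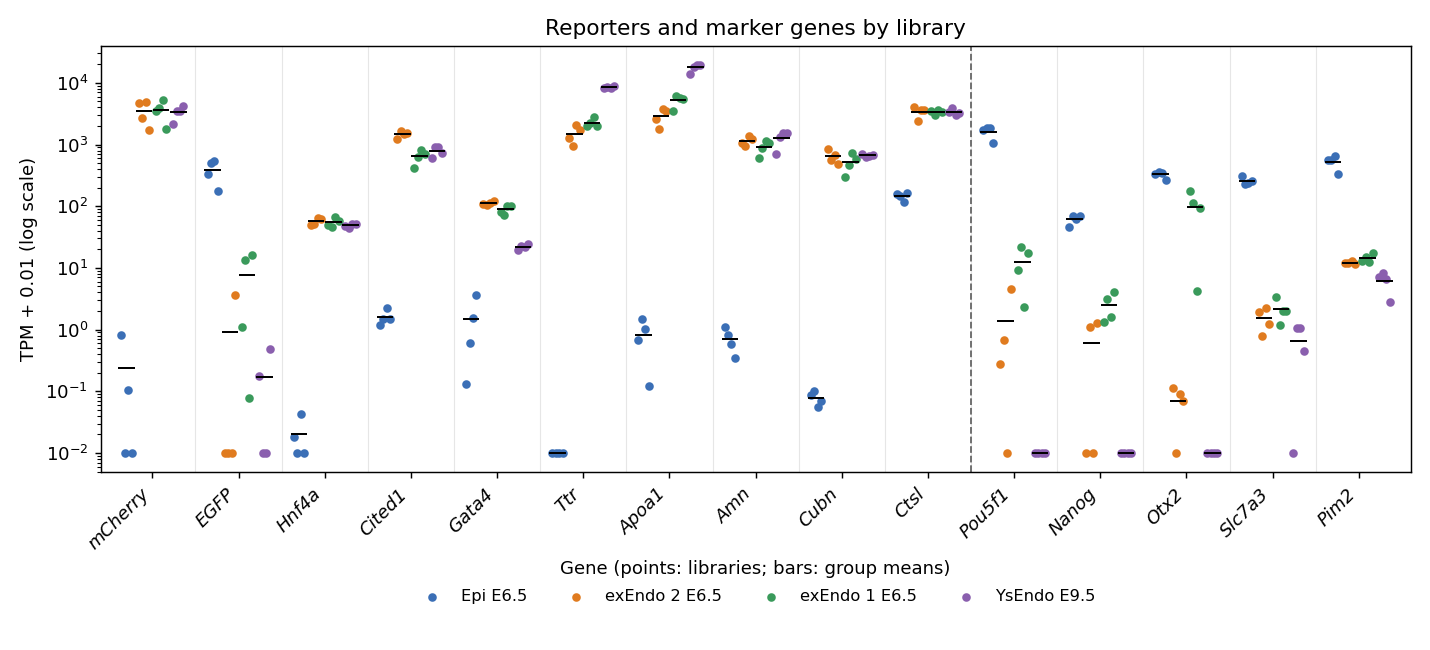
TPM in each library (points, logarithmic axis of TPM + 0.01) of the reporters and of selected endoderm and epiblast genes in Epi (blue), exEndo 2 (orange), exEndo 1 (green) and E9.5 YsEndo (purple), 4 libraries each; short bars are group means. The 4 exEndo 2 libraries hold mCherry between 1731 and 4938 TPM and EGFP at or below 3.59 TPM.

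Most tested transcription factors of the visceral endoderm were higher in exEndo 2. Of 14 listed factors, 11 passed the filter on low values, 10 rose and 0 fell, with a median log2 fold change of 5.71 against 0.05 over all genes tested. By their means, 11 of the 14 exceeded 1 TPM in exEndo 2 and 6 in Epi. A factor near 0 in Epi passed only by its exEndo 2 level, so the filter favoured a rise. Hnf4a, the nuclear receptor that drives hepatic and endodermal differentiation, was at 49.8, 51.8, 64.7 and 63.2 TPM in exEndo 2 and at 0.00829, 0, 0.0322 and 0 in Epi. The groups lay far apart (log2 fold change 5.84 ± 0.16, adjusted p = 6.58e-11). Cited1, a transcriptional coregulator, was the most abundant of the list at 1240.5, 1636, 1469.5 and 1564 TPM against 1.16, 1.48, 2.21 and 1.45 in Epi (log2 fold change 9.17 ± 0.15, adjusted p = 2.82e-12). Creb3l3, a membrane-bound factor of liver and gut that controls lipid genes, rose by 6.87 from 0.216 ± 0.118 to 141 ± 18.6 TPM (mean ± SD, n = 4). The endoderm specifiers Gata4 (log2 fold change 5.71) and Sox17 (5.99) rose as well, and Gata6 rose less (2.85) and was already at 4.43 ± 3.49 TPM in Epi. Foxa2, the pioneer factor of the endoderm, did not pass the test, since it was at 23.2, 28.5, 25.4 and 24.0 TPM in exEndo 2 and at 0.121, 21.2, 25.1 and 18.7 TPM in Epi. Only replicate 1 of Epi, the library without streak transcripts, was low. Nr2f1 and Nr5a2 did not reach 1 TPM on average in either tissue.

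All 14 serum and transport proteins tested rose, with a median log2 fold change of 4.32, while 8 of the 22 listed genes did not pass the filter. Of the 22, 16 had a mean above 1 TPM in exEndo 2 and 2 in Epi. Members near 0 in Epi could pass only by their exEndo 2 level. A rise was thus favoured in advance, and the count is not a test of the list. Ttr, which carries thyroid hormone and retinol-binding protein, was at 1286, 957, 2036 and 1747 TPM in exEndo 2 and listed at 0 in all 4 libraries of Epi (adjusted p = 7.19e-12). Its partner Rbp4 was at 417, 319, 1060 and 643 TPM against 1.66, 2.98, 1.53 and 2.17 in Epi, a rise of 7.50 ± 0.31. Afp, the major serum protein of the fetus, was at 146, 30.2, 192 and 177 TPM in exEndo 2 and 0.189, 0, 0.325 and 0.210 in Epi (log2 fold change 6.58 ± 0.47, adjusted p = 1.96e-07). Replicate 2 held the least Afp of the exEndo 2 libraries and still exceeded every Epi library. The 3 fibrinogen genes, neighbours on chromosome 3 (chr3:83026076-83033627 for Fga), were expressed in exEndo 2 at means of 8.24 (Fga), 31.7 (Fgb) and 21.05 TPM (Fgg), and Fga and Fgb were listed at 0 in Epi. Coagulation genes followed, with F2 (prothrombin) at 37.4 ± 3.78 TPM and F10 at 43.7 ± 10.2 TPM. Alb (albumin) did not pass the filter and reached 0.129 TPM on average.

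Promoters of the 2 transport genes Rbp4 and Afp are shown as the 250 bases before the RefSeq start site (build GRCm38.p6), with the matched motif in capitals. The Afp window holds the letters GTTAATNAT of the HNF1 family, at positions -105 to -97 from the start, and the Rbp4 window holds TGTTTAC of the FOXA family at positions -241 to -235, read on the opposite strand. Both strands were searched. The HNF1 letters occurred in 0.801% of all 32851 RefSeq promoter windows. The other shares count genes with the letters in any of their windows. They were 0.504% of tested genes with a window, 1.33% of those called higher and 0.366% of those called lower. Of the serum protein list, 5 of the 17 genes with a window held the letters. The letters of the FOXA and E2F families occurred for 1 of the 17 each, and the other motifs searched for 0. The FOXA letters occurred in 3.65% of all windows. By gene, they occurred for 3.12% of those tested, 3.01% of those called higher and 3.88% of those called lower. A match is a description of the letters and not evidence of binding.
Afp, chr5:90490464-90490713, + strand: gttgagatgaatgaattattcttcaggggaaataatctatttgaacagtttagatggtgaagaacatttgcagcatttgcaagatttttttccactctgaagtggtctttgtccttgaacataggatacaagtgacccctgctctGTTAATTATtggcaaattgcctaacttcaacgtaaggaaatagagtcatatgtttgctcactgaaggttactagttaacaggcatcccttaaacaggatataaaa
Rbp4, chr19:38125322-38125571, - strand: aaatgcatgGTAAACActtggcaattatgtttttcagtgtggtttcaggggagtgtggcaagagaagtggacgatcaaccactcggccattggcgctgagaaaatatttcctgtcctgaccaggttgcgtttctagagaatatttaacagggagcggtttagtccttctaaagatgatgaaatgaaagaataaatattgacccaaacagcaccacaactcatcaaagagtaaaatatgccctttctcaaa

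Genes of lipoprotein assembly and lipid export were among the strongest differences. Of 16 listed genes, 15 were tested, 14 rose and 0 fell, with a median log2 fold change of 5.98. By their means, 15 exceeded 1 TPM in exEndo 2 and 6 in Epi, so the filter favoured a rise here too. Apoa1, the main protein of high-density lipoprotein, was at 2581, 1815, 3790 and 3454 TPM in exEndo 2 and 0.660, 1.47, 1.02 and 0.112 in Epi. The groups lay far apart, with a log2 fold change of 10.65 ± 0.27 (adjusted p = 4.38e-11). Apoa4, its neighbour on chromosome 9, was at 628, 220.0, 569 and 572 TPM and listed at 0 in all 4 libraries of Epi. Apob, the scaffold of chylomicrons and low-density lipoprotein, was at 375, 196, 401 and 284 TPM against 0.0749, 0.0189, 0.0479 and 0.109 in Epi (log2 fold change 8.16 ± 0.21). The Apoe cluster on chromosome 7 rose together, with Apoe at 6502 ± 1390.3 against 104 ± 31.1 TPM, Apoc1 at 233 ± 54.7 against 24.0 ± 5.67 TPM and Apoc2 as given above. Mttp, which loads lipid onto Apob, rose by 4.53, the triglyceride synthesis enzyme Dgat2 by 4.09 and the cholesterol-esterifying Soat2 by 6.83. Fabp1, the fatty acid-binding protein of liver and intestine, was at 400.2, 306, 358 and 299 TPM in exEndo 2 and 0, 0, 0 and 0.0935 in Epi (log2 fold change 8.37 ± 0.15). Dgat1, the one tested member without a call, was at 23.1 ± 1.61 TPM in exEndo 2 and 14.9 ± 1.39 TPM in Epi.

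The receptor complex for maternal proteins was nearly restricted to the endoderm among these tissues. Of 16 endocytic receptors and adaptors, all tested, 11 rose and 2 fell (median log2 fold change 2.58). Amn, the transmembrane subunit of the cubam receptor, was at 1067, 936, 1377 and 1253 TPM in exEndo 2 and 1.099, 0.796, 0.575 and 0.332 in Epi. Its ligand-binding partner Cubn was at 844, 564, 673 and 491 TPM against 0.0772, 0.0901, 0.0460 and 0.0585. The pair rose by 9.42 ± 0.17 and 9.21 ± 0.17 (adjusted p = 3.89e-12 for both). Dab2, the clathrin adaptor that couples these receptors to the coat, was at 1862 ± 122 TPM against 10.9 ± 1.18 TPM (log2 fold change 7.30), and Folr1, a folate receptor, rose by 7.56. Megalin (Lrp2) was already transcribed in Epi, at 16.8 ± 2.79 TPM, and rose to 162 ± 39.9 TPM. The coat itself rose too, with Cltc, the clathrin heavy chain, up by 2.49 and the recycling GTPase Rab11a up by 1.78. Among the members that fell was Itpr1, a calcium channel of the endoplasmic reticulum (-1.75).

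Lysosomal genes followed the receptors. Of 29 listed and tested, 24 rose, 2 fell and 3 were not called (median log2 fold change 2.67). Ctsh, a cathepsin, was at 688, 427, 601 and 635 TPM in exEndo 2 and 0.330, 0.602, 0.640 and 1.35 in Epi. No other member moved by as much (8.42 ± 0.20, adjusted p = 3.47e-11). Ctsl was the most abundant protease of the list with 3405 ± 688 TPM against 145 ± 20.6 TPM, and Lgmn, an asparaginyl endopeptidase, rose by 6.09 to 1045 ± 182 TPM. Cd63, a tetraspanin of late endosomes, rose by 4.96. Of the factors that activate lysosomal genes, Tfeb was at 24.7, 27.2, 32.5 and 34.4 TPM against 0.199, 0.201, 0.0913 and 0.0992 in Epi. Tfec was at 48.2, 28.2, 43.4 and 33.2 TPM against 0, 0.135, 0 and 0.0448 in Epi. The rises of Tfeb and Tfec were 4.73 and 5.20. Tfe3, a factor of the same family, went the other way, with a lower mean in exEndo 2 than in Epi, and was not called. Gusb, the beta-glucuronidase, fell by 1.44 on the log2 scale (14.3 ± 3.05 against 40.2 ± 6.13 TPM), and Scarb2, an integral membrane protein of the lysosome, fell by 1.87.

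The E-box CACGTG is the core of the sites read by the Tfeb family and by other basic helix-loop-helix factors. It occurred for 9 of the 22 lysosomal genes with a promoter window, namely Cln3, Ctsa, Ctsd, Ctsl, Gaa, Glb1, Lamp1, Lgmn and Mcoln1. The letters of the E2F family occurred for 3 of the 22, those of the GATA family for 1 and the other motifs searched for 0. By gene, the E-box was present for 12.1% of tested genes with a window, 13.6% of those called higher and 123 of the 1367 called lower. The window of Amn, outside that list, is shown as that of a strongly risen receptor gene with the same letters, at positions -26 to -21 from the start.
Amn, chr12:111270846-111271095, + strand: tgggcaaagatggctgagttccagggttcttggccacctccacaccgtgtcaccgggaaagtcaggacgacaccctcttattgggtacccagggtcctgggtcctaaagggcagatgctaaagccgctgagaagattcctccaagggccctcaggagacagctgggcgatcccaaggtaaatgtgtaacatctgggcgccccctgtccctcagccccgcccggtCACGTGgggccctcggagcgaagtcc

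Genes of iron handling and of the apical surface were mostly higher in exEndo 2. Of 9 tested genes of iron and haem handling, 6 rose and 2 fell. The iron exporter Slc40a1 (ferroportin) rose by 2.69, the importer Slc11a2 by 1.60, the ferritin heavy chain Fth1 by 2.64 and the haem oxygenase Hmox1 by 2.42. Tfrc, the transferrin receptor, went the other way, at 8.95, 22.1, 8.84 and 17.8 TPM in exEndo 2 against 67.0, 54.6, 50.1 and 81.0 in Epi (log2 fold change -2.14 ± 0.28), as did Heph (-2.25), a copper-dependent ferroxidase. Transferrin itself (Trf) was at 43.5, 19.6, 52.1 and 37.1 TPM against 0.684, 0.733, 0.490 and 0.380 TPM. Of 12 tested genes of the brush border, 10 rose and 1 fell. Vil1, the bundler of microvillar actin, was at 45.02, 48.8, 60.7 and 71.0 TPM in exEndo 2 and 0.372, 0.377, 0.463 and 0.355 in Epi (log2 fold change 5.34 ± 0.18), and Dpp4, an apical peptidase, at 122 ± 19.4 against 0.378 ± 0.145 TPM. Pdzk1 and Cdhr2, which organize the microvillar membrane, were at 119 and 26.0 TPM, and Cdhr2 was listed at 0 in Epi. The simple epithelial keratins Krt8 and Krt18 rose by 3.85 and 2.84. Krt7 was the member called lower, at 0.738 ± 0.787 against 2.41 ± 1.14 TPM with overlapping groups, and lost the call without replicate 3 of Epi, without replicate 1, 3 or 4 of exEndo 2, on FPKM and after quantile normalization.

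**Figure D3:**
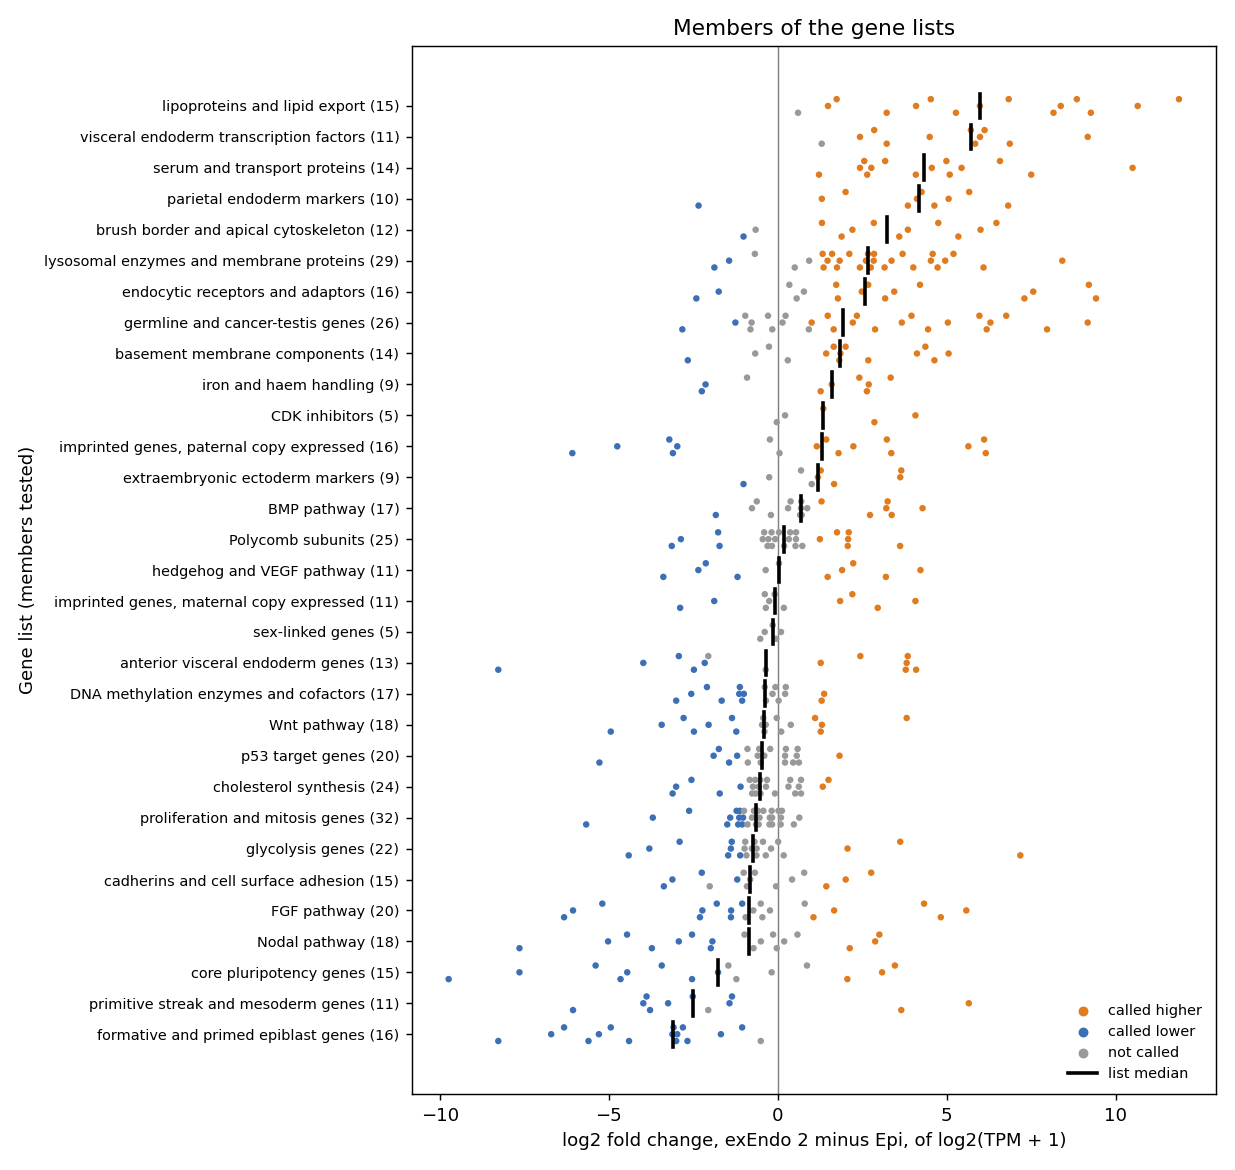
Log2 fold change, exEndo 2 minus Epi, of every tested member (points) of the gene lists with at least 5 tested members, with the list median as a black bar; orange points were called higher, blue points called lower and grey points not called. The highest medians belong to the lipoprotein, transcription factor and serum protein lists of the endoderm, and the lowest to the formative epiblast and primitive streak lists.

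Components of the basement membrane were mostly higher in exEndo 2, with 10 of 14 risen and 1 fallen. Lama1, the laminin chain of Reichert's and the early embryonic membrane, was at 49.6, 132, 34.4 and 27.8 TPM in exEndo 2 and 0.354, 0.306, 1.24 and 0.418 in Epi (log2 fold change 5.06 ± 0.40). Replicate 2, the exEndo 2 library with the highest sum of extraembryonic ectoderm markers, was also highest in Lama1. The collagen IV genes Col4a1 and Col4a2, head to head on chromosome 8, rose by 4.64 and 4.37, and the matricellular protein gene Sparc was at 726, 1169, 944 and 1057 TPM against 63.4, 56.1, 69.6 and 34.8. The rise of the laminin gene Lamc1 (1.43) was 0.97, without a call, when replicate 2 was left out. Col18a1 fell, at 5.83 ± 2.51 against 42.4 ± 15.1 TPM. Many of these genes are also markers of the parietal endoderm, a neighbouring cell type. Of 10 tested parietal endoderm markers 9 rose and 1 fell. The summed level of the 13 listed markers was 1821 to 2764 TPM in exEndo 2, highest in replicate 2, 1191 to 1801 TPM in exEndo 1 and 146 to 284 TPM in Epi, and Thbd, a defining marker of that tissue, was at 0.0567, 0.265, 0.0883 and 0.189 TPM in exEndo 2. How far parietal cells contribute was not tested. The marker called lower was Fst (follistatin), at 14.6, 63.3, 13.7 and 9.96 TPM in exEndo 2 and 30.4, 156, 142 and 149 TPM in Epi, where the groups overlapped. Srgn, a proteoglycan core protein whose promoter window is given for its octamer ATGCAAAT at its far end (positions -249 to -242), rose by 6.82 ± 0.34.
Srgn, chr10:62507758-62508007, - strand: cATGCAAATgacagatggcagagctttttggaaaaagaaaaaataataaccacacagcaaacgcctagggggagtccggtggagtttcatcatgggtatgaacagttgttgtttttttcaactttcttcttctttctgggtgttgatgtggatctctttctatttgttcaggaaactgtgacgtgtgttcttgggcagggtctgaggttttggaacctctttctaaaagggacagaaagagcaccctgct

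Of 15 tested cadherins and other surface proteins 3 rose and 4 fell, beside 20.4% and 15.4% of all genes tested, and the count of fallen genes was 7 both without replicate 4 of Epi and without replicates 2 and 4 of exEndo 2. The tight junction genes Cldn6 (2.01), Cldn7 (1.44) and Ocln (2.76) rose. Cdh2 (N-cadherin, -3.12), Epcam (-1.20), the laminin receptor chain Itga6 (-3.37) and Ncam1 (-2.25) fell. Cdh1 (E-cadherin) was at 56.9, 65.1, 46.4 and 57.6 TPM in exEndo 2 and 111, 97.3, 106 and 85.1 in Epi, lower in every exEndo 2 library but under the fold threshold (-0.81 ± 0.14).

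The core pluripotency factors were nearly absent from exEndo 2, and other genes of the list were not. Of 15 tested core genes, 8 fell and 3 rose. Pou5f1 (Oct4), on chromosome 17 (chr17:35506018-35510772), was at 0.264, 0.665, 0 and 4.51 TPM in exEndo 2 and 1694, 1824, 1852 and 1067 in Epi. The log2 fold change of -9.74 ± 0.43 (adjusted p = 3.52e-09) was the largest fall of all genes. Nanog was at 0, 1.08, 0 and 1.28 TPM against 45.5, 68.2, 62.2 and 70.4 in Epi and Sox2 at 0, 0.208, 0.0979 and 1.57 TPM against 31.4, 25.3, 26.6 and 32.3. These 3 factors form the core circuit of pluripotent cells, and each lay far below every Epi library in all 4 exEndo 2 libraries. Tdgf1, the Nodal coreceptor Cripto, fell by 7.64 on the log2 scale, Utf1 by 4.65 and Foxd3 by 3.43. The RNA-binding proteins and zinc finger genes of the list behaved otherwise, since Sall4 was at 126 ± 7.35 TPM in exEndo 2 and 144 ± 22.7 TPM in Epi, and Lin28a at 304 ± 39.3 and 169 ± 40.4 TPM. Members that rose were Zfp42 (Rex1) with 27.7, 25.2, 15.8 and 16.1 TPM against 10.9, 2.76, 3.21 and 2.80, the Krüppel-like factor Klf4 with 29.2, 23.9, 9.69 and 15.2 TPM against 1.5, 0.925, 1.00 and 1.58, and the threonine dehydrogenase Tdh (3.47). Replicate 1 of Epi was highest in Zfp42 among the Epi libraries and also in Dppa4, with 110.5 TPM.

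Genes of the formative and primed epiblast fell almost as a block, 15 of 16 with 0 risen and a median of -3.10. Otx2, the homeobox gene that redirects enhancers at the exit from naive pluripotency, was at 0.103, 0, 0.0809 and 0.0583 TPM in exEndo 2 and 331, 359, 352 and 268 in Epi (log2 fold change -8.27 ± 0.15, adjusted p = 2.82e-12). Fgf5, the classic marker of the primed epiblast, was at 2.12, 0.199, 0.160 and 0.193 TPM against 115, 121, 149.7 and 97.9. Slc7a3, an arginine transporter, fell from 257 ± 36.5 to 1.53 ± 0.648 TPM, and Sox11 fell by 5.60 on the log2 scale. Pim2, a survival kinase, was at 12.1, 11.9, 13.1 and 11.6 TPM against 566, 569, 660.0 and 329 (log2 fold change -5.29 ± 0.19), and Lef1, a nuclear effector of Wnt signalling, at 1.27, 1.31, 2.32 and 4.48 TPM against 69.7, 107, 119.9 and 90.6 (-4.94 ± 0.28). Etv4 was the member without a call.

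The promoter windows of Pim2 and Lef1 are shown because both genes fell steeply and hold a searched motif. Pim2 on chromosome X carries the octamer letters ATGCAAAT of POU factors such as Pou5f1 at 2 places, positions -202 to -195 on the opposite strand and -123 to -116 on the strand shown. Lef1 carries an E-box at positions -79 to -74. The octamer occurred in 1.74% of all promoter windows. By gene, it occurred for 1.56% of tested genes with a window, 2.05% of those called lower and 1.63% of those called higher.
Pim2, chrX:7878056-7878305, + strand: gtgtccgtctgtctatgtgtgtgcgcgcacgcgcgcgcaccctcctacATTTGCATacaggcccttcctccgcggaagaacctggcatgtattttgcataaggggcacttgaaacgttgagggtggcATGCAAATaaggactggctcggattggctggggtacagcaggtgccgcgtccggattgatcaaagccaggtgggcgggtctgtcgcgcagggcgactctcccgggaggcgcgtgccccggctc
Lef1, chr3:131156044-131156293, + strand: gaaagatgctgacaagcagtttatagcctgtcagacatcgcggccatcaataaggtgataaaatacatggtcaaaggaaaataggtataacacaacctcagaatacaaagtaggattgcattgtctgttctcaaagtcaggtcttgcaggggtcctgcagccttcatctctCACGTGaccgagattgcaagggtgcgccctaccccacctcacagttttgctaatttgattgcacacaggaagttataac

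Primitive streak and mesoderm genes were lower in exEndo 2, and here the Epi libraries themselves varied. Of 11 tested, 8 fell and 2 rose. Fgf8 was at 0, 0.135, 0 and 1.04 TPM in exEndo 2 and 26.6, 143, 144 and 77.7 in Epi, with no overlap (log2 fold change -6.06 ± 0.46). Mixl1 was at 1.32, 2.93, 2.22 and 8.84 TPM in exEndo 2, and replicate 1 of Epi lay within that range, and its log2 fold change of -3.88 had an adjusted p of 0.00895. Mesp1, which marks the first mesoderm, was at 0, 32.7, 44.6 and 60.7 TPM in Epi and 0.181, 0, 0.0869 and 1.095 in exEndo 2. Lhx1, at 0.122, 37.1, 48.9 and 41.3 TPM in Epi against 5.33, 2.18, 2.76 and 3.02 in exEndo 2, passed no test with all libraries (-2.05, adjusted p = 0.0822) and was called lower (-3.37) without replicate 1 of Epi. The fall of Wnt3 (-1.35, adjusted p = 0.0457) was lost without replicate 1, 2 or 3 of exEndo 2 and without replicate 2, 3 or 4 of Epi (-1.25 to -1.15). The members that rose were Cdx2 (3.66), a caudal gene also used by trophoblast, and Tbx3 at 68.3, 81.7, 85.2 and 90.1 TPM against 0.281, 0.274, 0.161 and 2.69 (5.65). The anterior visceral endoderm genes were divided against Epi, with 6 of 13 risen and 5 fallen. Hhex (2.45) and Hesx1 (3.79) rose, whereas Otx2 and Gsc (-3.98), which the epiblast or its streak also transcribes, fell.

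Of 18 tested genes of the Nodal pathway, 8 fell and 3 rose, beside 15.4% and 20.4% of all genes tested. Nodal was at 0.782, 0.525, 0.334 and 0.718 TPM in exEndo 2 and 28.4, 25.5, 21.2 and 9.99 in Epi (log2 fold change -3.72 ± 0.28, adjusted p = 2.85e-07), and its antagonist Lefty2 at 0, 0.0974, 0 and 0.0364 TPM against 12.1, 26.3, 53.1 and 64.1. Gdf1, a partner ligand, fell by 4.46 on the log2 scale. The related coreceptors went in opposite directions. Tdgf1 was all but absent from exEndo 2, whereas its relative Cfc1 (Cryptic) was at 56.9, 26.5, 38.3 and 30.7 TPM against 0.824, 5.89, 3.84 and 6.82 in Epi (3.01 ± 0.40). Furin, the convertase that matures Nodal, rose by 2.13. Foxh1, the DNA-binding partner of activated Smads, fell by 1.98 on the log2 scale.

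Of 20 tested genes of the FGF pathway, 9 fell and 5 rose, beside 15.4% and 20.4% of all genes tested. The ligands Fgf4 (-2.30), Fgf5 (-6.32), Fgf8 (-6.06) and Fgf15 (-5.19) fell, and Fgf15 was at 41.6, 44.7, 45.7 and 25.4 TPM in Epi against 0, 0.118, 0 and 0.214 in exEndo 2. Receptors differed by type. Fgfr1 fell (9.95 ± 0.788 against 27.9 ± 5.67 TPM), whereas Fgfr2 (1.67), Fgfr3 (4.82) and Fgfr4 (4.33) rose. Fgfr3 was at 40.6, 42.3, 33.7 and 27.6 TPM in exEndo 2 and 0.217, 0.305, 0.441 and 0.212 TPM in Epi. Klb, the coreceptor for endocrine FGFs such as Fgf15, was at 61.4, 63.3, 42.1 and 42.1 TPM in exEndo 2 and 0.0547, 0.0601, 0.0502 and 0.211 in Epi, a rise of 5.58 ± 0.19. The feedback genes Spry2 and Dusp6 fell by 2.23 and 1.80 on the log2 scale.

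In the BMP list 6 of 17 tested genes rose and 1 fell, beside 20.4% and 15.4% of all genes tested, and 10 were not called. Of the 6 that rose, 5 are targets or feedback inhibitors. Id2, a direct target of BMP signalling, was at 809, 541, 477 and 548 TPM in exEndo 2 and 42.05, 28.3, 24.4 and 23.9 in Epi (log2 fold change 4.29 ± 0.20). Id1 (3.37), Msx1 (3.21), Msx2 (3.25) and the inhibitory Smad6 (2.73) rose as well. The ligand Bmp4 was low in both tissues, at 4.22 ± 2.34 and 2.07 ± 0.515 TPM, and was not called. The member that fell was the receptor gene Bmpr1b (0.0225 ± 0.0262 against 2.73 ± 0.890 TPM).

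Among 18 tested Wnt pathway genes 7 fell and 4 rose, beside 15.4% and 20.4% of all genes tested. The nuclear factors Lef1 and Tcf7l1 fell by 4.94 and 3.43 on the log2 scale and the receptor Fzd7 by 2.04, while the secreted antagonist Dkk1 was at 53.6, 48.6, 41.3 and 34.5 TPM in exEndo 2 against 0.0757, 2.75, 2.84 and 5.69 in Epi (log2 fold change 3.82 ± 0.43). Sfrp1 fell by 2.48 and Sfrp5 rose by 1.27, both secreted Wnt binders. In the hedgehog and VEGF list 5 of 11 tested genes rose and 4 fell. Ihh, the ligand that visceral endoderm sends to adjacent tissue, was at 15.9, 18.5, 22.01 and 19.21 TPM in exEndo 2 and 0.0797, 0.0605, 0.0705 and 0.0269 in Epi (4.22 ± 0.16). The transducer Smo (-1.19) and the transcription factors Gli2 (-2.35) and Gli3 (-3.38) fell. Vegfa was at 21.9, 24.6, 22.2 and 17.9 TPM against 0.798, 2.10, 1.21 and 1.94 (3.20 ± 0.20).

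The de novo DNA methyltransferases were lower in exEndo 2, and the maintenance enzymes were not called. Of 17 tested genes, 8 fell and 2 rose. Dnmt3b was at 141, 162, 222 and 208 TPM in exEndo 2 and 1486, 1486, 1723 and 1167 in Epi. Its log2 fold change was -3.004 ± 0.16 (adjusted p = 1.86e-08). Dnmt3a fell by 2.09 on the log2 scale, from 227 ± 85.4 to 49.6 ± 10.1 TPM. The maintenance enzyme Dnmt1, at 55.2 ± 10.7 against 72.0 ± 11.1 TPM, and its partner Uhrf1, at 134 ± 14.7 against 151 ± 31.3 TPM, were not called. Trim28 and Hells, which maintain silencing, fell by 1.12 and 1.14. Tet1 was at the threshold (-1.002) and lost its call without replicate 1 or 2 of Epi, without replicate 2, 3 or 4 of exEndo 2 and without both replicates 2 and 4 of exEndo 2. Tet2 rose by 1.37. Dnmt3l was called lower (-1.66) with overlapping groups and lost the call without replicate 1, 2 or 3 of Epi or replicate 1 or 3 of exEndo 2.

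Of 25 tested Polycomb subunits 6 rose and 4 fell, close to the shares over all genes tested (20.4% and 15.4%). The core genes Eed (104 ± 13.48 against 128 ± 31.3 TPM) and Suz12 (83.8 ± 11.7 against 75.1 ± 23.2 TPM) were not called. Pcgf5, which defines a variant of Polycomb repressive complex 1, was at 105, 97.5, 82.3 and 90.6 TPM in exEndo 2 and 7.77, 6.69, 3.92 and 9.49 in Epi (log2 fold change 3.62 ± 0.21). Among chromobox genes Cbx7 (2.07) and Cbx8 (1.75) rose whereas Cbx2 (-2.86) and Cbx6 (-3.13) fell. The accessory subunits Jarid2 and Kdm2b fell by 1.72 and 1.76 on the log2 scale.

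Genes best known from germ cells, many of them X-linked, were strongly transcribed in exEndo 2. Of 43 listed, 26 passed the filter, 16 rose and 2 fell (median log2 fold change 1.94). Rhox5, an X-linked homeobox gene, was at 1833, 1586, 1743 and 1849.5 TPM in exEndo 2 and 13.4, 0.765, 0.850 and 0.807 in Epi. Replicate 1 of Epi held the most of the Epi libraries, and the log2 fold change was 9.17 ± 0.55 (adjusted p = 4.38e-08). Xlr3a, of the X-linked lymphocyte-regulated family, was at 410.0, 331, 284 and 269 TPM against 0.514, 0.197, 0.105 and 0.328 (7.97 ± 0.17). Its relatives Xlr3b, Xlr4b and Xlr5a rose by 6.29, 6.76 and 6.18, but the copies of this family are nearly identical and reads may have been divided among them. Trap1a, an X-linked tumour rejection antigen, rose by 3.67 from 13.2 ± 2.71 to 181 ± 34.3 TPM, and Rhox6 by 5.97. Autosomal members rose less, among them the transposon silencing gene Tex19.1 (2.88), the cohesin subunit Rec8 (2.22) and the helicase Ddx4 (1.66). Asz1 (1.48) rose with all libraries and was 0.86, without a call, when replicates 2 and 4 of exEndo 2 were left out, and Slc25a31 was at the threshold and lost its call without any 1 of 5 libraries (replicate 2, 3 or 4 of Epi, replicate 1 or 2 of exEndo 2). The meiotic genes Dmc1 and Syce2 fell by 2.82 and 1.25 on the log2 scale. Of the 447 genes tested on chromosome X as a whole, 25.5% rose and 24.6% fell.

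Imprinted genes moved in both directions. Of 11 tested genes expressed from the maternal copy 4 rose and 2 fell, and of 16 expressed from the paternal copy 9 rose and 5 fell. Over all genes tested, 20.4% rose and 15.4% fell. Igf2, the paternally expressed growth factor, was at 39.6, 63.8, 77.2 and 87.0 TPM in exEndo 2 and 0.248, 0.206, 0.454 and 0.333 in Epi (log2 fold change 5.64 ± 0.23). Its non-coding neighbour H19, outside the protein-coding filter, was at 1573, 2026, 2167 and 2587 TPM against 1.26, 0.596, 0.491 and 0.614 (exact two-sided permutation test, p = 0.0286, the smallest that 4 against 4 libraries allow). Peg10, a retrotransposon-derived gene needed in the placenta, was at 253, 299, 225 and 299 TPM against 4.00, 1.91, 1.82 and 3.90 (6.16 ± 0.21), and Sfmbt2 at 199.9, 187, 121 and 116 TPM against 1.68, 0.688, 0.883 and 1.83 (6.11 ± 0.23). Of the maternally expressed genes, the growth restrictors Cdkn1c and Phlda2 rose by 4.07 and 2.96. Snrpn was at 3.27, 5.64, 3.92 and 6.90 TPM in exEndo 2 and 393, 455, 489 and 258 in Epi (-6.08 ± 0.23), and its chromosome 7 neighbours Ndn and Magel2 fell by 3.10 and 3.21 on the log2 scale. Mest was at 2.25, 3.45, 1.68 and 14.8 TPM against 192, 122, 148 and 89.0 (-4.75 ± 0.46), and Grb10 fell by 1.88. Levels do not show which parental copy was read.

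Cell cycle genes were lower in exEndo 2 or not called. Of 32 genes of proliferation and mitosis, all tested, 0 rose and 11 fell, beside 20.4% and 15.4% of all genes tested. Their median was -0.64 against 0.05 over all genes tested. The largest falls were those of 2 D-type cyclins and Mycl. Ccnd1 was at 1.27, 1.33, 1.11 and 3.95 TPM in exEndo 2 and 170.0, 129, 163 and 99.6 in Epi (log2 fold change -5.67 ± 0.27), Ccnd2 fell by 2.62 and Mycl by 3.70. The replication helicase genes Mcm2, Mcm3 and Mcm5 and Pcna fell by 1.12, 1.41, 1.14 and 1.17, whereas the mitotic genes Mki67 (36.8 ± 7.88 against 42.1 ± 11.02 TPM) and Cdk1 (151 ± 21.2 against 178 ± 24.2 TPM) were not called. Of 5 tested inhibitors of cyclin-dependent kinases, Cdkn1c, Cdkn2a (2.86) and Cdkn2d (1.35) rose, and Cdkn2a was at 4.49, 18.1, 13.96 and 34.7 TPM in exEndo 2 against 3.36, 0.267, 1.20 and 0.658 in Epi. Trp53 was at 49.2, 48.3, 56.2 and 55.9 TPM in exEndo 2 and 191, 226, 245 and 92.7 in Epi (-1.74 ± 0.25). Of 20 tested genes of the p53 list 5 fell, Trp53 included, and 1 rose, beside 15.4% and 20.4% of all genes tested. Pmaip1 (Noxa), a death-inducing target, fell by 5.27 on the log2 scale and Zmat3 by 1.90, while the stress gene Sesn2 rose by 1.83. Bax was at 325 ± 45.2 against 502 ± 131 TPM and not called.

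Of 22 tested glycolytic genes, 7 fell and 3 rose, beside 15.4% and 20.4% of all genes tested. Pklr, the liver pyruvate kinase, rose by 2.07. The glucose transporter Slc2a3 was at 542, 526, 791 and 741 TPM in exEndo 2 and 48.0, 51.1, 48.8 and 56.0 in Epi (log2 fold change 3.62 ± 0.15), whereas Slc2a1 was called lower (-1.11) and lost the call without replicate 1 of exEndo 2 (-0.90). Ldhb, a subunit of lactate dehydrogenase, was at 18.1, 34.4, 24.3 and 26.6 TPM against 332, 392, 398 and 338 (-3.80 ± 0.17), and the lactate exporter Slc16a3 fell by 4.41 on the log2 scale. Pkm fell by 1.39. Of 24 tested genes of cholesterol synthesis 5 fell, beside 15.4% of all genes tested, and 2 rose. After quantile normalization, which raised the genes called lower from 1858 to 2108 in all, 8 fell. Sqle, an early oxygenase of the pathway, was at 8.34, 7.51, 4.18 and 6.17 TPM in exEndo 2 against 74.1, 71.2, 72.6 and 40.1 in Epi (-3.11 ± 0.24), and Idi1 fell by 2.55. The master regulators Srebf1 (36.0 ± 8.42 against 23.1 ± 6.02 TPM) and Srebf2 (78.9 ± 5.59 against 49.9 ± 12.98 TPM) were not called.

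Outside the lists, the largest falls included Ifitm2, an interferon-induced membrane protein also used by pluripotent cells, with 0.409, 4.78, 1.54 and 16.3 TPM in exEndo 2 and 371, 499.8, 441 and 388 in Epi (log2 fold change -6.60 ± 0.58). Igfbp2, a binding protein for insulin-like growth factors, was at 3.93, 3.76, 6.72 and 4.43 TPM against 511, 566, 641 and 382 (-6.53 ± 0.19). Uchl1, a deubiquitinase abundant in neurons, and Wfdc2, a secreted protease inhibitor, fell by 6.23 and 6.20. Apom, an apolipoprotein that carries sphingosine-1-phosphate, was among the largest rises and was at 1048, 629, 1322 and 1241 TPM in exEndo 2 against 0.835, 0.379, 0.462 and 1.05 (9.26 ± 0.23).

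The question of position along the egg cylinder was addressed by comparing exEndo 2 with the distal exEndo 1. These values share the exEndo 2 libraries with the comparison to Epi. Of 11414 genes tested, 732 were called (6.41%), 280 higher in exEndo 2 (2.45%) and 452 lower (3.96%), and the groups did not overlap for 2234 (19.6%). Only 53 genes were higher and 130 lower by more than 2 on the log2 scale. The count of higher genes depended on which embryos were used, with 158 higher and 403 lower without replicates 2 and 4 of exEndo 2, and 214 to 365 higher when single libraries were left out.

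The genes lower in exEndo 2 than in exEndo 1 were led by those of the anterior visceral endoderm and by genes shared with the epiblast. Of 13 tested anterior visceral endoderm genes 10 were lower and 0 higher, with a median of -2.77 against -0.02 over all genes tested. Cer1, an antagonist of Nodal, BMP and Wnt, was at 0, 0.173, 0.0643 and 0.122 TPM in exEndo 2, 283, 89.8, 11.04 and 209 in exEndo 1 and 0.153, 10.9, 7.31 and 3.56 in Epi (log2 fold change to exEndo 1 -6.37 ± 0.76, adjusted p = 3.30e-04). Otx2 was at 179, 114, 4.18 and 91.9 TPM in exEndo 1 (-5.73 ± 0.86) and Gsc, an organizer gene, at 60.6, 62.1, 4.46 and 22.9 TPM against 0, 0.200, 0.0540 and 0.362 in exEndo 2 (-4.54 ± 0.63). Sfrp1 (-5.73), Lhx1 (-4.52) and Shisa2 (-3.12) were lower as well. Hhex and Dkk1, also anterior markers, were at 16.3 ± 6.93 and 44.5 ± 8.37 TPM in exEndo 2 against 24.1 ± 15.9 and 54.6 ± 17.0 TPM in exEndo 1 and were not called. Streak and FGF ligand genes followed, with 7 of 11 streak genes lower and 0 higher. Fgf5 was at 155, 115, 32.4 and 90.1 TPM in exEndo 1 (-5.84 ± 0.45), Fgf8 at 71.0, 99.8, 11.5 and 80.6 TPM (-5.40 ± 0.56) and Mixl1 at 192, 214, 54.1 and 95.7 TPM (-4.89 ± 0.48). In exEndo 1 the means of Fgf5, Fgf8 and Mixl1 amounted to 81.1%, 67.2% and 108% of the Epi mean, that of Pou5f1 to 0.787% and that of EGFP to 1.99%. Mest (-5.71 ± 0.67) and Igfbp2 (-5.39 ± 0.31) were lower in exEndo 2 too, and so were 9 of 18 Wnt pathway genes, with 1 higher.

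The genes higher in exEndo 2 than in exEndo 1 included Fabp3 and Fabp1 and markers of the parietal endoderm. Fabp3, a fatty acid-binding protein, was at 270.4, 693, 207 and 320.4 TPM in exEndo 2, 19.3, 4.31, 2.16 and 5.20 in exEndo 1 and 21.7, 28.0, 17.2 and 24.9 in Epi (log2 fold change to exEndo 1 5.63 ± 0.51, adjusted p = 5.07e-05). Fabp1 was at 6.98, 18.1, 80.6 and 18.6 TPM in exEndo 1 (3.93 ± 0.52). Ggt1, a brush border peptidase, was at 48.3, 58.3, 45.4 and 42.4 TPM against 3.07, 3.82, 3.08 and 3.62 (3.49 ± 0.15), and Pitx1, a homeobox gene of the hindlimb, at 10.4, 43.1, 23.7 and 44.6 TPM against 0.551, 1.54, 2.40 and 2.41 (3.40 ± 0.42). Myl3, Hs3st1 and Igfbp1 were higher by 3.88, 3.53 and 3.37. Of 10 tested parietal endoderm markers 5 were higher and 0 lower, among them Pth1r with 103, 156, 123 and 125 TPM against 17.3, 24.0, 34.9 and 36.3 (2.18 ± 0.22) and Fst (3.35 ± 0.57). Of 12 tested endoderm factors 4 were higher, Sox7 with 24.3, 21.9, 20.9 and 20.1 TPM against 6.93, 3.64, 6.90 and 5.58 among them (1.78 ± 0.19), and Foxa1 was lower, with 0.0594, 0, 0.490 and 0.200 TPM against 18.4, 13.9, 7.57 and 9.93 (-3.45 ± 0.27). Serum proteins did not follow, with 0 of 16 higher and 4 lower. Afp was at 1397, 2569, 2184 and 1868 TPM in exEndo 1, above every exEndo 2 library (-4.13 ± 0.48, adjusted p = 2.82e-04), and of the 15 tested lipoprotein genes 3 were higher and 1 lower (median 0.05). The lower one was Apob (-1.38 ± 0.22), and Apoa1 (3503, 6181, 5670.3 and 5428 TPM in exEndo 1) was not called. The plot of position-dependent genes sets these levels beside those of Epi.

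**Figure D4:**
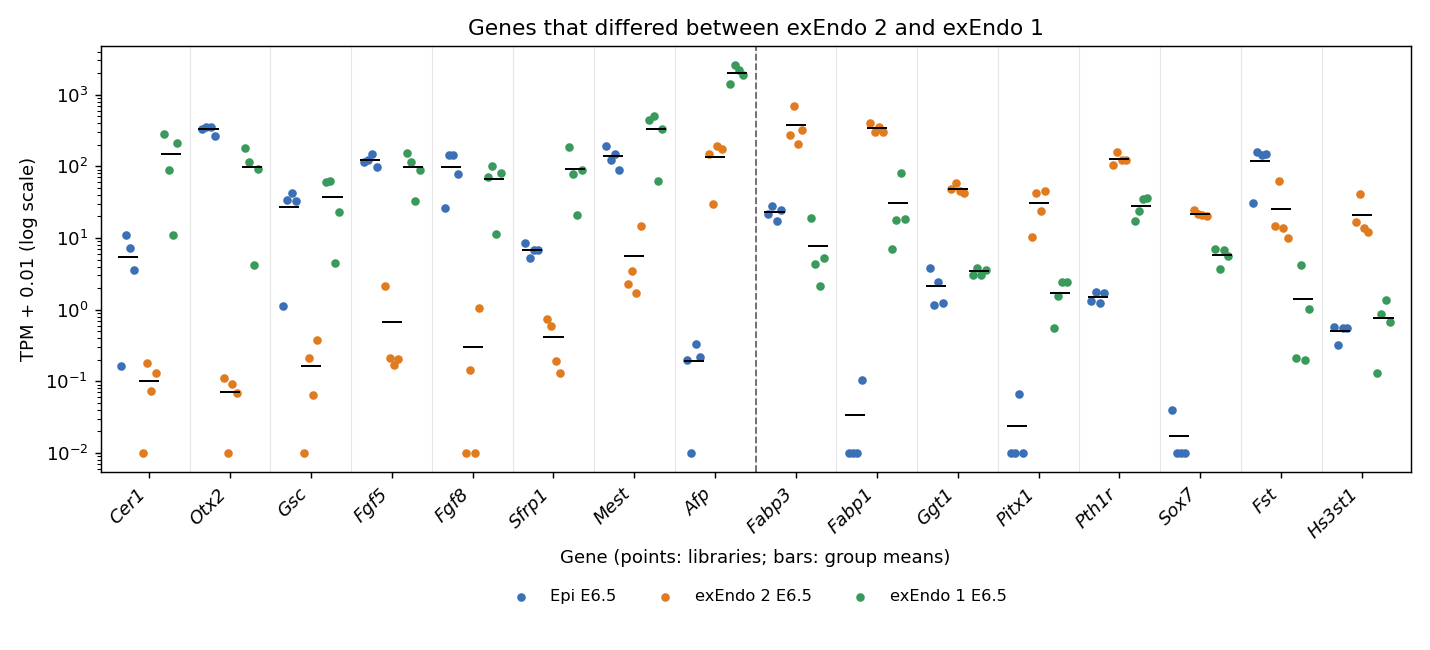
TPM in each library (points, logarithmic axis of TPM + 0.01) of genes that differed between exEndo 2 (orange) and exEndo 1 (green), with Epi (blue), 4 libraries each; short bars are group means. The 8 genes on the left were lower in exEndo 2 than in exEndo 1 and the 8 on the right higher.

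The yolk sac endoderm at E9.5, to which the proximal endoderm contributes, is given by its levels only, since stage, tissue and sampling change together. YsEndo libraries were made from sorted EPCAM+ mCherry+ cells of pooled embryos, and the E6.5 tissues were dissected by hand from single embryos. Serum proteins were far more abundant there, with Afp at 24518, 23926, 27040 and 23871 TPM, Rbp4 at 10743, 12830, 11944 and 12165 and Trf at 1806, 2042, 2426 and 2244. Their exEndo 2 means were 136, 609.7 and 38.1 TPM. The summed level of the 16 endocytic receptors and adaptors lay at 5222 to 6106 TPM in exEndo 2 and 5343 to 6188 TPM in YsEndo, with Cubn at means of 643 ± 153 and 669.9 ± 30.6 TPM and Amn at 1158 ± 195 and 1279 ± 392. That of the 29 lysosomal genes was 8827 to 11739 TPM in exEndo 2 and 13487 to 15020 TPM in YsEndo, without overlap, although Ctsl had means of 3405 ± 688 and 3400.1 ± 334 TPM. The endoderm specifiers Sox17 and Sox7 went the other way, with means of 149 ± 9.08 and 21.8 ± 1.81 TPM in exEndo 2 and 2.51 ± 2.33 and 1.09 ± 0.468 in YsEndo. Rhox5 (1869.5 ± 102 TPM), Xlr3a (282 ± 7.89) and Peg10 (254 ± 28.8) were near their exEndo 2 means of 1753, 323 and 269 TPM. Plots of these genes over the 4 groups show the endoderm groups side by side.

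**Figure D5:**
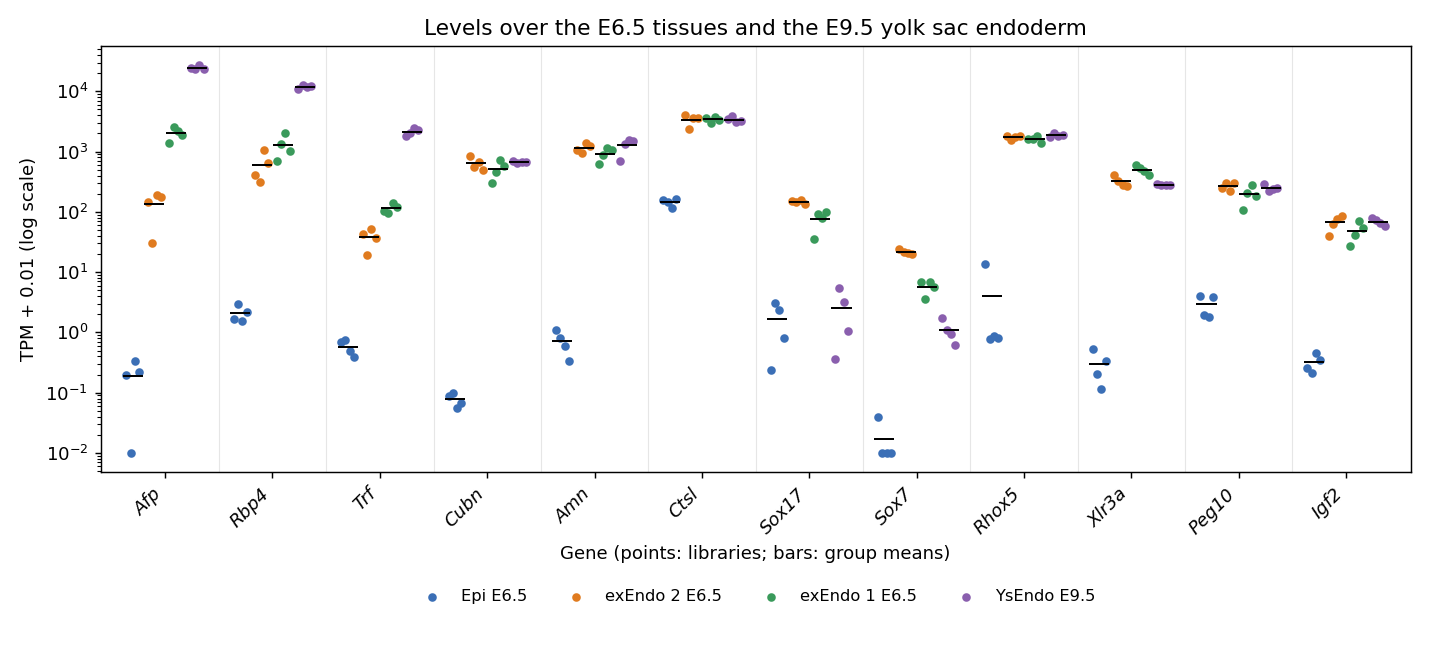
TPM in each library (points, logarithmic axis of TPM + 0.01) of serum protein, receptor, lysosomal, transcription factor, germline and imprinted genes in Epi (blue), exEndo 2 (orange), exEndo 1 (green) and YsEndo (purple), 4 libraries each; short bars are group means. Serum protein genes are highest in YsEndo, and receptor and germline genes are at similar levels in the 3 endoderm groups. Ctsl, the lysosomal gene plotted, is also transcribed in Epi, at 145 ± 20.6 TPM.

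Markers of other tissues that the dissection could hold were low apart from those named above. Summed over 9 trophoblast giant cell markers the level was 0.222 to 6.40 TPM in exEndo 2, highest in replicate 2 with 2 markers at 0, and 0.204 to 1.71 TPM in Epi. The 13 decidua and maternal tissue markers summed to 2.64 to 14.6 TPM in exEndo 2, highest in replicate 2, and to 5.16 to 8.19 TPM in Epi. Among them Cryab was called higher (1.92, 11.5, 1.75 and 1.29 TPM against 1.42, 0.333, 0.742 and 0.0643) and lost the call without replicate 2 of exEndo 2, without replicates 2 and 4 of exEndo 2, or without replicate 2 or 4 of Epi. The 12 blood markers summed to 3.45 to 5.44 TPM in exEndo 2 and 3.29 to 5.04 TPM in Epi, and the embryonic globin Hbb-y was at 0 in all 8 libraries. Of 9 tested extraembryonic ectoderm markers 5 rose, Tead4 (3.62) and Cdx2 among them, and 1 fell. Tfap2c, another such marker, was at 0.559, 12.9, 0.765 and 3.70 TPM in exEndo 2 and 0.341, 0.785, 1.00 and 1.31 in Epi and was not called. It was called higher (1.42) without replicate 1 of exEndo 2, and its direction turned without replicates 2 and 4 (-0.14). The part of these tissues in the differences between exEndo 2 and Epi was not tested.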

How the data were processed

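RNA of tissues of single wild-type, lineage-traced E6.5 embryos, and of sorted YsEndo cells of pooled E9.5 embryos, was sequenced by low-input poly(A) RNA-seq. Reads had been trimmed by the authors (cutadapt 4.1), mapped with STAR 2.7.9a to mm10 with the EGFP and mCherry sequences added, and used to quantify GENCODE VM23 genes with StringTie 2.0.6. The deposited values are TPM, FPKM and coverage per gene. TPM and FPKM are relative to each library's total, so an abundant transcript in one tissue lowers all others.

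TPM was summed per gene identifier, and 38 symbols carry several identifiers. Gene type and position were taken from GENCODE vM21 (32235 of 32287 identifiers matched). Protein-coding genes above 1 TPM in at least 4 of the 8 libraries, without Y-linked genes, were fitted as log2(TPM + 1) with limma 3.58.1 (R 4.3.3, lmFit and eBayes with trend, Benjamini-Hochberg adjustment). The fit against exEndo 1 was made in the same way. Calls needed an absolute log2 fold change over 1 together with an adjusted p below 0.05. Genes of interest outside the filter were tested by an exact two-sided permutation test (NumPy 2.4.6). The fit was tested on simulated data. Depth is stated as bases implied by the deposited coverage and FPKM.

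Named were, per list, the called members with the 4 largest changes, those moving against their list, members whose role the text needs and defining markers of other tissues, and beyond the lists the 10 largest rises and falls without overlap (8 of each against exEndo 1), not all of which are printed. The members and gene lists were chosen with earlier results of these data known. Same-numbered exEndo 2 and exEndo 1 libraries deviated together (r = 0.271, 0.167, 0.402 and 0.272 over genes), which rests on the data and not on a label. Promoters of RefSeq (GRCm38.p6, 32851 windows) were searched for the motifs on both strands. The alternatives changed the added TPM, the filter, the scaling, the unit, the variance model, the gene types, the samples in the fit, the replicate block and the libraries left out. Some members of the lists are counted but not reported here by name.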

Additional observations from a re-analysis of the deposited data

Results flagged for a closer look

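For the 242 genes named, the most extreme of the 4 libraries of exEndo 2 and of Epi was set against the others by Dixon's test on log2(TPM + 1) in the 380 groups with a mean of at least 1 TPM, at its 95% critical value. Of these, 38 groups held a library set apart, where chance gives about 1 in 20 groups, or 19.

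In Epi, replicate 1 was low in streak and node genes. It held Mixl1 at 1.90 TPM (141 to 227 in the other 3 libraries), Mesp1 at 0 (32.7 to 60.7), Lhx1 at 0.122 (37.1 to 48.9), Foxa2 at 0.121 (18.7 to 25.1), Gsc at 1.098 (32.8 to 41.9), Fst at 30.4 (142 to 156), Wnt3 at 2.73 (16.5 to 16.9) and the imprinted Magel2 at 6.23 (10.5 to 11). It was high in Zfp42 at 10.9 TPM (2.76 to 3.21), Rhox5 at 13.4 (0.765 to 0.850) and the cholesterol synthesis gene Idi1 at 112 (71.2 to 75.6).

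Replicate 4 of Epi was the low library in every group where it stood apart. Among epiblast genes it held Pou5f1 at 1067 TPM (1694 to 1852 in the other 3 libraries), Utf1 at 145 (434 to 452), Tdh at 12.6 (19.8 to 21.1), Gdf1 at 10.2 (32.3 to 34.8), Fgf15 at 25.4 (41.6 to 45.7) and Tcf7l1 at 27.3 (40.5 to 42). The tight junction genes Cldn6 and Cldn7 were at 91.2 (257 to 266) and 61.6 (119 to 126). Sqle was at 40.1 TPM (71.2 to 74.1), Mcm5 at 134 (233 to 247), Dnmt1 at 55.5 (76.2 to 78.8), Ctsd at 42.5 (78.2 to 82.9) and Uchl1 at 72.5 (103 to 107).

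In exEndo 2, replicate 2 was low in secreted and lipid genes, with Afp at 30.2 TPM (146 to 192 in the other 3 libraries), Apoa4 at 220.0 (569 to 628), Fgg at 11.6 (23.7 to 25.0) and Soat2 at 119.5 (163 to 169.7), and high in Lamc1 at 72.7 (18.3 to 20.1) and Cryab at 11.5 (1.29 to 1.92). Replicate 1 held Ddx4 at 44.6 TPM (13.3 to 14.1), Dpp4 at 151 (111 to 113) and Cdx2 at 8.20 (19.5 to 22.2). Replicate 3 held Pdzk1 at 146 TPM (108 to 111), Smo at 10.2 (12.6 to 12.8) and Suz12 at 66.5 (87.3 to 92.0). Replicate 4 held Ccnd1 at 3.95 TPM (1.11 to 1.33) and Wnt3 at 11.3 (2.06 to 2.79).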

How the results depend on the processing

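The count of 4310 genes called between exEndo 2 and Epi was 4800 with 0.1 TPM added, 3632 on FPKM and between these values under the other alternatives. Leaving out single libraries gave 4258 to 4355 genes, 2395 to 2511 higher and 1802 to 1937 lower. Quantile normalization moved the median log2 fold change of all genes from 0.05 to -0.12 and called 2113 higher and 2108 lower. The replicate number as a block gave 4311 calls. Same-numbered exEndo 2 and Epi libraries did not deviate together (r = 0.083, -0.010, 0.172 and -0.085), and the labels give only the number. Against exEndo 1, where same-numbered libraries deviated together though no label pairs them, the block gave 771 calls (298 higher, 473 lower). This was in place of 732 and changed no call of a named gene. Leaving out single libraries gave 642 to 877 calls there, 214 to 365 higher and 402 to 512 lower, and leaving out replicates 2 and 4 of exEndo 2, chosen after the data were seen, gave 158 higher and 403 lower; the cause was not tested.

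Of 68 counts of list members, 59 stayed within 1.5 times their value under all 18 alternatives. The others were small counts: brush border lower (1, then 0 to 2), adhesion lower (4, then up to 7), BMP lower (1, then 0 to 2), germline lower (2, then 4 with 0.1 TPM added), cholesterol synthesis lower (5, then 8 after quantile normalization), extraembryonic ectoderm lower (1, then 0 to 2), decidua higher and lower (to 0) and sex-linked higher (0, then 2 with all gene types). Of 230 named genes compared with Epi, 11 changed their call under at least 1 alternative and 1 turned direction, Tfap2c, at -0.14 without replicates 2 and 4 of exEndo 2. The deposited values carry no read counts, so the error of low values is known only from the spread of 4 embryos per group.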
